A study of Homo sapiens with 3 samples.

Results

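The genes described here make long transcripts that carry small RNAs, or that stay in the nucleus as RNAs. They were taken by gene name: every SNHG gene (small nucleolar RNA host gene) with a number, every MIR gene whose name ends in HG (microRNA host gene), and GAS5, ZFAS1, MALAT1 and NEAT1. The rule found 106 of the 62680 rows of the expected-count table. Of these, 30 were hosts of small nucleolar RNAs (snoRNAs), GAS5 and ZFAS1 included, 74 were microRNA (miRNA) hosts, and 2 were the nuclear long non-coding RNAs (lncRNAs) MALAT1 and NEAT1. The rule uses names and no measured value.

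The cells were HepG2, an established human cell line from a hepatocellular carcinoma, given as wild type in the labels. The 3 groups were 20 µM A740003 for 48 h, 20 µM A438079 for 48 h, and PBS for 48 h. A740003 and A438079 are antagonists of P2X7, an ATP-gated cation channel of the plasma membrane, and the question was how cells with this receptor blocked differ from control cells in their transcripts. Each group was 1 mRNA-seq library of 1 culture condition, so a difference below has no replicate check and carries no p-value. No label names the solvent of the antagonists, so compound and solvent cannot be told apart.

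A snoRNA host gene is transcribed and spliced like a messenger RNA gene. Its introns are trimmed to snoRNAs, which guide methylation or pseudouridylation of ribosomal and spliceosomal RNA. The spliced host RNA that is left is often short-lived, because it carries little open reading frame and is degraded during translation by nonsense-mediated decay. Many of these genes belong, like the ribosomal protein genes, to the class whose RNAs start with a C and a run of pyrimidines (a 5′ terminal oligopyrimidine tract), which ties their translation to mTOR. A miRNA host gene is cut in the nucleus by Drosha and DGCR8 to release hairpins, so its remaining RNA is low in most cells. NEAT1 is the scaffold of paraspeckles, and MALAT1 collects at nuclear speckles, which hold splicing factors.

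The libraries held 19735585 (A740003), 19606761 (A438079) and 19375501 (PBS) rounded expected counts, and 1 CPM (1 count scaled to library size) stood for 19.9, 19.4 and 19.4 counts in that order. The hepatocyte and HepG2 markers ALB, AFP, APOA1, SERPINA1, TF and FGB were all high, while TTR was low, with 149 counts after A740003, 115 after A438079 and 88 after PBS. ALB was lower with A740003, at 95722 counts, than with A438079 (120012) or PBS (125391), and its part in the values below was not tested. Of the 8 markers of blood, endothelial and fibroblast cells, only CD14 had counts after rounding (3 with A740003, 8 with A438079 and 8 with PBS).

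The miRNAs carried by the hosts that the results turn on are shown with their seed, bases 2 to 8, in capitals. They lie within the hosts that passed the size rule below and within MIR122HG, the host of the main liver miRNA, and 8 of their 16 mature RNAs are shown, the better known arm of each hairpin on the host's strand. The sequences are from RefSeq on GRCh38.p14, 5′ to 3′.
MIR22HG, hsa-miR-22-3p: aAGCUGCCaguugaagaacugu
MIR3142HG, hsa-miR-3142: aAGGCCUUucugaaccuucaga
MIR3142HG, hsa-miR-146a-5p: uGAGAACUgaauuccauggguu
MIR222HG, hsa-miR-221-3p: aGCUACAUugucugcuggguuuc
MIR222HG, hsa-miR-222-3p: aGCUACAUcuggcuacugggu
MIR193BHG, hsa-miR-193b-3p: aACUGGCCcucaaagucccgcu
MIR193BHG, hsa-miR-365a-3p: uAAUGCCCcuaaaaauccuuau
MIR122HG, hsa-miR-122-5p: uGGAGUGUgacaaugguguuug
The MIR222HG pair shares the seed GCUACAU, which no other of the 2370 mature human miRNAs in the table has. The seed of miR-146a-5p is shared with miR-146b-5p and miR-7153-5p, and that of miR-193b-3p with miR-193a-3p. That of miR-365a-3p is shared with miR-365b-3p, and that of miR-3142 with miR-1245b-5p. The 16 mature sequences within these 5 hosts have 15 distinct seeds, and the MIR222HG pair is the only shared one.

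The start of the snoRNA hosts is shown for 8 genes, because most of these genes lay on the same side of PBS with A740003 and the tract at their start is a known common feature. Each line holds 20 bases before and 30 bases from the RefSeq transcription start on, on the gene's strand (GRCh38.p14). Capitals mark a C followed by at least 4 bases that are each C or T, where this run begins within 5 bases of the start.
ZFAS1, chr20:49278622-49278671, plus strand: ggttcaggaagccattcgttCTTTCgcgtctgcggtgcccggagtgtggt
SNHG5, chr6:85678704-85678753, minus strand: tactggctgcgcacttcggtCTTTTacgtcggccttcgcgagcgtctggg
SNHG32, chr6:31834896-31834945, plus strand: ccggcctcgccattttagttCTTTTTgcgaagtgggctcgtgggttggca
SNHG19, chr16:2155329-2155378, minus strand: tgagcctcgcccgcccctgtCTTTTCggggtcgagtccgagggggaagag
SNHG12, chr1:28581844-28581893, minus strand: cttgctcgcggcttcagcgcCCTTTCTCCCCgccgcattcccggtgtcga
SNHG4, chr5:139274081-139274130, plus strand: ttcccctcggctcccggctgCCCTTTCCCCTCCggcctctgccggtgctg
GAS5, chr1:173869016-173869065, minus strand: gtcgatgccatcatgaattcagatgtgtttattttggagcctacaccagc
SNHG1, chr11:62855856-62855905, minus strand: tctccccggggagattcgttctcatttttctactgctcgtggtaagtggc
The first 6 of these begin the tract exactly at the listed start, and GAS5 and SNHG1 have none within 5 bases of theirs. Of the 21 measured snoRNA hosts with an entry, 10 (47.6%) had the tract within 5 bases of the start and 6 (28.6%) exactly at it. The shares were 22.8% and 5.57% of 9352 measured genes, and 21.1% and 4.04% of all 27305 entries. A match describes these letters at 1 listed start per gene, and no match says nothing about other starts.

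Most of the hosts were too low to compare. A gene was taken as measured where its mean CPM across the libraries was 1 or more, which 12273 rows and 37 of the 106 genes reached: 22 snoRNA hosts, 13 miRNA hosts, MALAT1 and NEAT1. Another 32 had counts below that mean, and 37 were at 0 in every library, 34 of them miRNA hosts. A count of 0 allows up to 3 counts, or 0.151 CPM with A740003, 0.155 CPM with A438079 and 0.154 CPM with PBS. All 106 together took 0.212% of all counts with A740003, 0.195% with A438079 and 0.193% with PBS, with exact 95% binomial intervals of 0.210% to 0.214% for A740003, 0.193% to 0.197% for A438079 and 0.191% to 0.195% for PBS. These intervals, like all below, cover counting error only.

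On the authors' FPKM scale, which is per length and so allows levels of different genes to be compared, the 10 highest were all snoRNA hosts. SNHG5, host of SNORD50A and SNORD50B, led at 631 FPKM with A740003, 600 FPKM with A438079 and 604 FPKM with PBS. SNHG29, host of SNORD49A, SNORD49B and SNORD65, followed at 407 FPKM with A740003, 353 FPKM with A438079 and 390 FPKM with PBS. Mean FPKM over the 3 libraries was 193 for SNHG8, 184 for ZFAS1, 181 for SNHG16, 179 for SNHG6, 152 for GAS5, 133 for SNHG19, 120 for SNHG1 and 97.6 for SNHG32. In this order each gene from SNHG8 to SNHG19 had libraries that overlapped those of the next gene, so their ranking is not firm. Every library of SNHG8 lay above every library of SNHG16, and every library of SNHG1 above every library of SNHG32. MALAT1 had 32.7 FPKM with A740003, 32.1 with A438079 and 32.0 with PBS, and NEAT1 22.5 FPKM with A740003, 15.5 with A438079 and 17.6 with PBS. The 13 miRNA hosts lay far lower, between 0.58 and 6.38 FPKM.

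**Figure D1:**
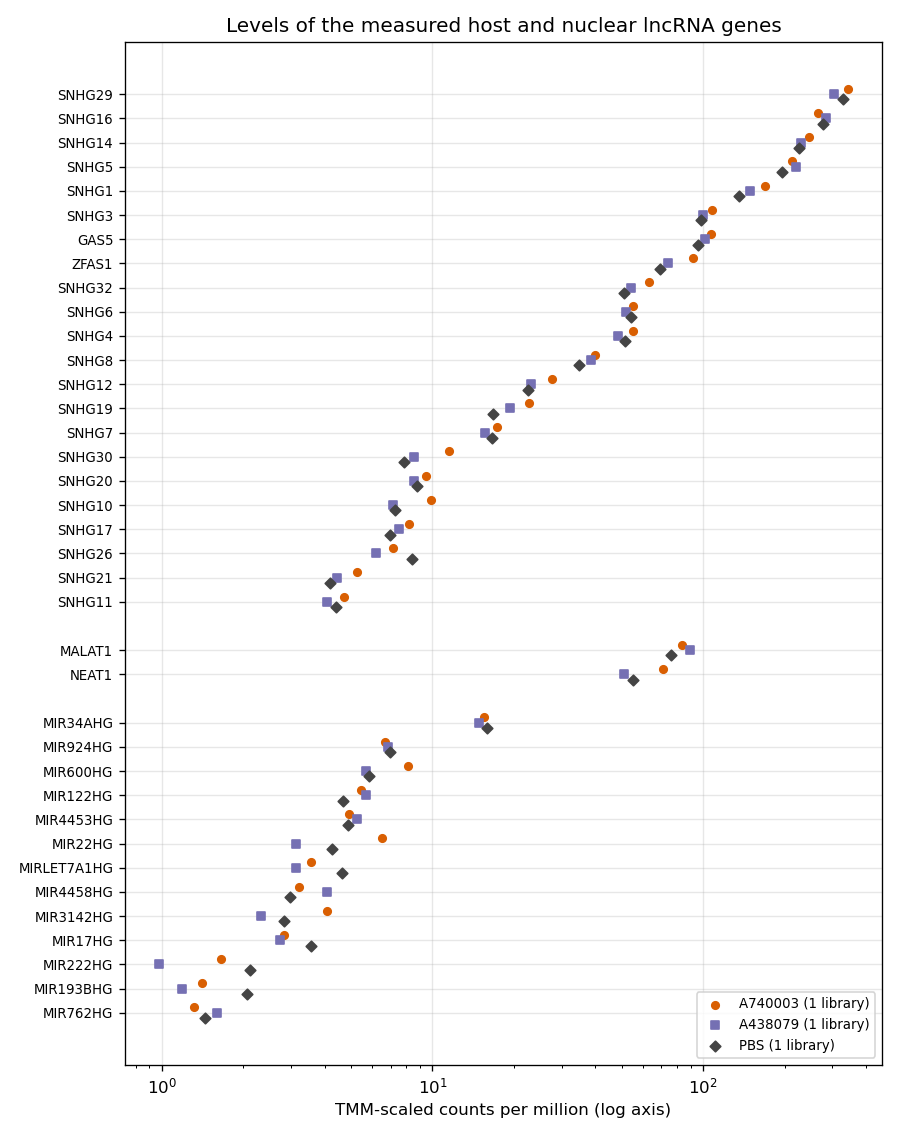
Level of the 37 measured genes in TMM-scaled CPM (log axis), with 1 point per library and no error bars (1 library per treatment); snoRNA hosts are at the top, then MALAT1 and NEAT1, then miRNA hosts. SNHG29 had 342, 304 and 328 CPM in the A740003, A438079 and PBS libraries and MIR222HG 1.66, 0.979 and 2.11 CPM, and the A740003 point lies furthest right for 19 of 22 snoRNA hosts.

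The snoRNA hosts were slightly higher with A740003 than with PBS. A ratio was taken between counts scaled for library size by TMM, with an exact 95% binomial interval, and a gene was called higher or lower at 1.5-fold or more where that interval excluded 1. No snoRNA host was called in either direction, against 3.21% (higher) and 10.6% (lower) of all 12273 genes. Yet 20 of the 22 (90.9%) had a ratio above 1, against 50.9% of all genes, and the interval lay above 1 for 13 of 22, against 26.6% of all genes. The median log2 ratio of the 22 was 0.15 (from -0.23 to 0.55), beside 0.01 over all genes. In bulk RNA, more RNA of a host per cell and more cells that make it cannot be told apart.

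ZFAS1, which lies head to head with ZNFX1 and hosts SNORD12, SNORD12B and SNORD12C, had 1819 counts with A740003, 1445 with A438079 and 1350 with PBS. The A740003 library stood alone above the other two. Its ratio was 1.32 (1.23 to 1.42) for A740003 over PBS, 1.07 (0.995 to 1.16) for A438079 over PBS and 1.23 (1.15 to 1.32) for A740003 over A438079. SNHG1, whose introns hold SNORD25 to SNORD31, had 3360 counts with A740003, 2888 with A438079 and 2646 with PBS. Its libraries were graded, with ratios of 1.24 (1.18 to 1.31) for A740003 over PBS, 1.09 (1.04 to 1.15) for A438079 over PBS and 1.14 (1.08 to 1.19) for A740003 over A438079. GAS5, the growth arrest-specific gene with 11 snoRNA genes within its RefSeq span, had 2122 counts with A740003, 1972 with A438079 and 1860 with PBS. Its ratio was 1.12 (1.05 to 1.19) for A740003 over PBS, and the interval for A438079 over PBS, 0.996 to 1.13, included 1.

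The lowest ratio of the 22 for A740003 over PBS, SNHG26, and the highest, SNHG30, were both in hosts of low count. SNHG30, host of SNORD7, had 228 counts with A740003, 166 with A438079 and 152 with PBS, and its ratio of 1.47 (1.19 to 1.81) over PBS lay just under the 1.5-fold limit. SNHG10, host of SCARNA13, had 197 counts with A740003, 139 with A438079 and 141 with PBS, a ratio of 1.37 (1.10 to 1.71). SNHG19, host of SNORD60, had 451 counts with A740003, 377 with A438079 and 327 with PBS, a ratio of 1.35 (1.17 to 1.56). In each of these 3 genes A740003 was the highest library, and the A438079 interval over PBS included 1. SNHG32, an annotated protein-coding gene in GENCODE that hosts SNORD48 and SNORD52, had 1254 counts with A740003, 1053 with A438079 and 990 with PBS, a ratio of 1.24 (1.14 to 1.35). SNHG8, host of SNORA24, had 790 counts with A740003, 751 with A438079 and 676 with PBS, a ratio of 1.14 (1.03 to 1.27).

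SNHG29, SNHG16, SNHG14 and SNHG5, the highest hosts by count, had ratios from 0.961 to 1.09 for A740003 over PBS. SNHG1, the next by count, and ZFAS1 lay further from PBS, at 1.24 and 1.32. SNHG14 had 4915 counts with A740003, 4474 with A438079 and 4398 with PBS. Its ratios over PBS were 1.09 (1.05 to 1.14) for A740003 and 1.02 (0.977 to 1.06) for A438079. SNHG29 had 6790 counts with A740003, 5897 with A438079 and 6375 with PBS, so the 2 antagonist libraries lay on opposite sides of PBS: the ratios were 1.04 (1.01 to 1.08) for A740003 and 0.927 (0.894 to 0.960) for A438079. SNHG5 had 4234 counts with A740003, 4264 with A438079 and 3819 with PBS, and its ratios of 1.08 (1.04 to 1.13) and 1.12 (1.07 to 1.17) for A740003 and A438079 over PBS were close. Its FPKM ratios were 1.04 and 0.993 in the same order. SNHG6, host of SNORD87, had 1093 counts with A740003, 1006 with A438079 and 1054 with PBS, and both intervals over PBS included 1. SNHG16, host of SNORD1A, SNORD1B and SNORD1C, was the only snoRNA host whose interval lay below 1 for A740003 over PBS. It had 5281 counts with A740003, 5529 with A438079 and 5376 with PBS, a ratio of 0.961 (0.925 to 0.998). SNHG26, host of SNORD93, was the other host with a ratio under 1, at 142 counts with A740003, 120 with A438079 and 163 with PBS.

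With A438079 the snoRNA hosts lay close to PBS. No snoRNA host was called at 1.5-fold, against 1.63% (higher) and 9.43% (lower) of all genes. A ratio above 1 was seen in 14 of 22 (63.6%), against 49.5% of all genes, and the median log2 ratio was 0.04, beside -0.00 over all genes. The interval lay above 1 for SNHG5, SNHG1 and SNHG8 (3 of 22, against 22.9% of all genes) and below 1 for SNHG29 and SNHG26 (2 of 22, against 23.2%). By FPKM the ratios of SNHG5, SNHG1 and SNHG8 were 0.993, 1.04 and 1.01. SNHG26 had the lowest ratio of the 22, at 0.737 (0.578 to 0.939). For A740003 over PBS the share of all genes with an interval below 1 was 26.2%, against SNHG16 alone among the hosts.

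The antagonist libraries, 1 of each at the same dose and time, differed from each other in the snoRNA hosts. For A740003 over A438079, 20 of 22 ratios were above 1 (50.2% of all genes), 11 of 22 intervals lay above 1 (16.1% of all genes) and 1 of 22, SNHG16, lay below 1 (16.8% of all genes). The median log2 ratio was 0.18, beside 0.00 over all genes, and none was called at 1.5-fold, against 2.52% (higher) and 2.74% (lower) of all genes. The largest was SNHG10, at 1.38 (1.11 to 1.73). The A740003 library held the highest of the 3 levels in 19 of 22 hosts (86.4%), against 35.4% of all genes, a count that uses the A740003 library in both of its comparisons. Summed over all snoRNA hosts, the ratio was 1.09 (1.08 to 1.11) for A740003 over PBS, 1.02 (1.01 to 1.04) for A438079 over PBS and 1.07 (1.05 to 1.08) for A740003 over A438079.

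**Figure D2:**
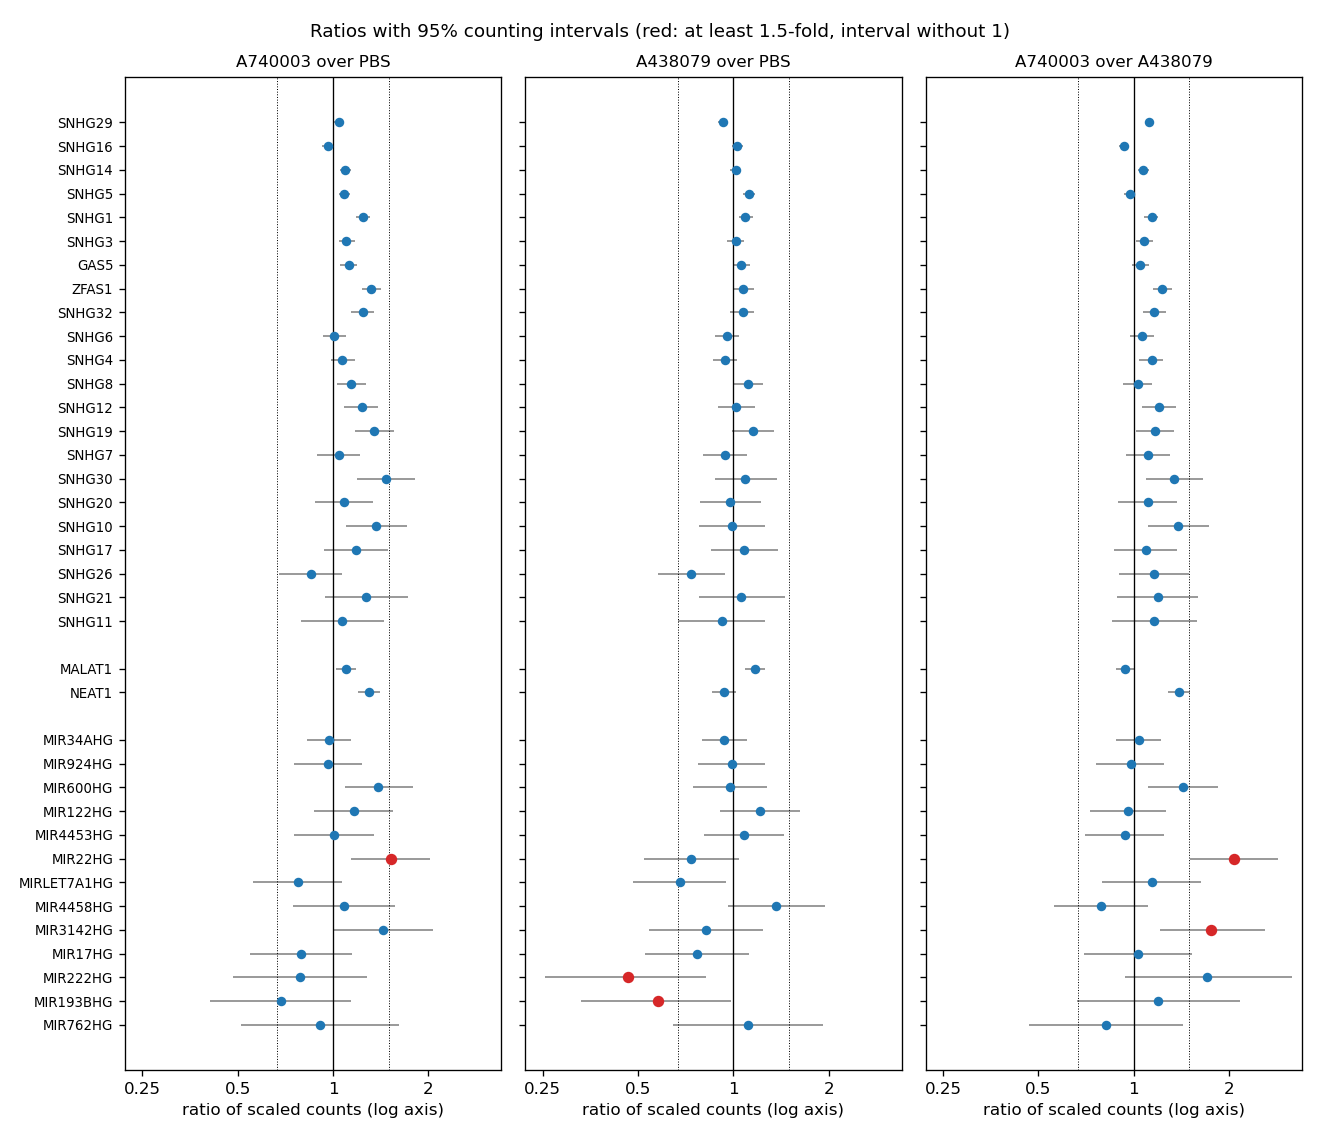
Ratio of TMM-scaled counts (log axis) for each measured gene, with A740003 over PBS at the left, A438079 over PBS in the middle and A740003 over A438079 at the right; bars are exact 95% binomial intervals for counting error, and dotted lines mark 1.5-fold. The red points are the genes called at 1.5-fold: MIR22HG (1.52) at the left, MIR222HG (0.464) and MIR193BHG (0.576) in the middle, and MIR22HG (2.07) and MIR3142HG (1.76) at the right.

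**Figure D3:**
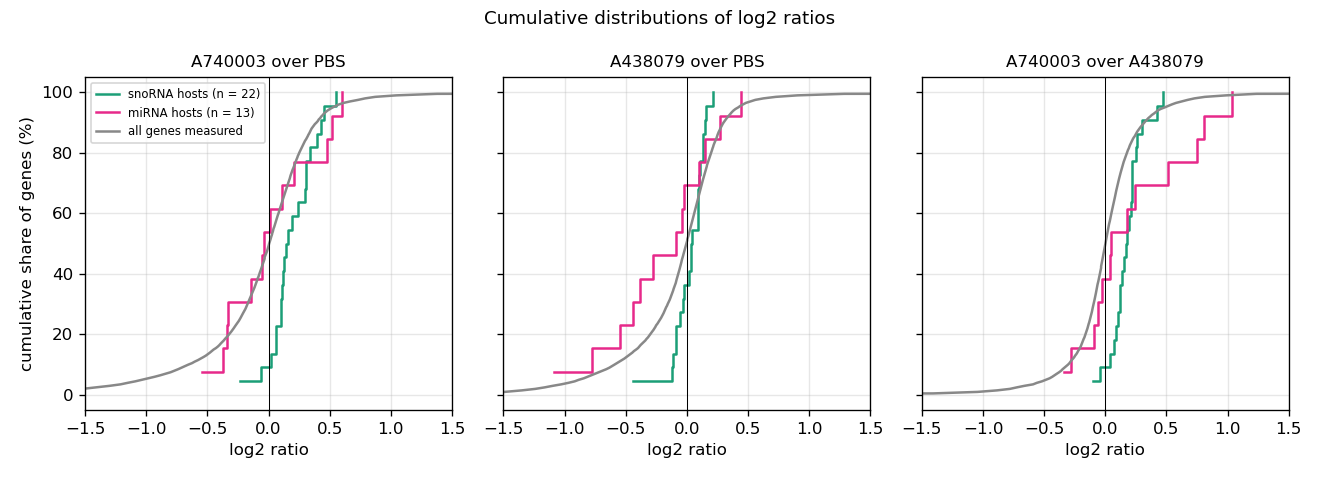
Cumulative share of genes (%) against log2 ratio for the 22 measured snoRNA hosts, the 13 miRNA hosts and all 12273 genes, 1 panel per comparison. The snoRNA host curve lies to the right of the curve for all genes through most of its course for A740003 over PBS (median 0.15) and A740003 over A438079 (median 0.18), and near it for A438079 over PBS (median 0.04).

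NEAT1 (chr11:65422774-65445540, plus strand, GENCODE 29 on GRCh38) and MALAT1 (chr11:65497688-65506516, plus strand) are neighbouring lincRNA genes, and their values differed. NEAT1 had 1416 counts with A740003, 992 with A438079 and 1067 with PBS, so that only the A740003 library was high. Its ratio was 1.30 (1.20 to 1.41) for A740003 over PBS, 0.931 (0.853 to 1.02) for A438079 over PBS and 1.39 (1.28 to 1.51) for A740003 over A438079. MALAT1 had 1666 counts with A740003, 1736 with A438079 and 1483 with PBS, so that both antagonist libraries were above PBS. Its ratios were 1.10 (1.02 to 1.18) for A740003 over PBS, 1.17 (1.09 to 1.26) for A438079 over PBS and 0.937 for A740003 over A438079, where the interval began at 0.876 and just reached 1. The expected counts give 1 value per gene, so the short and long forms of NEAT1 were not separated.

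Few miRNA hosts passed the size rule, and those that did had low counts. MIR22HG (chr17:1711493-1717174, minus strand), a stress-responsive host of miR-22, had 129 counts with A740003, 61 with A438079 and 83 with PBS. The antagonist libraries lay on opposite sides of PBS. The ratio was 1.52 (1.14 to 2.03) for A740003 over PBS, 0.736 (0.520 to 1.04) for A438079 over PBS and 2.07 (1.51 to 2.85) for A740003 over A438079. It was the only 1 of the 37 measured genes called higher for A740003 over PBS (2.70%, against 3.21% of all genes), and none was called lower. MIR3142HG (chr5:160438594-160487426, plus strand), which contains miR-3142 and miR-146a, had 81 counts with A740003, 45 with A438079 and 55 with PBS. It was called for A740003 over A438079, at 1.76 (1.21 to 2.59), and its ratio over PBS was 1.44 (1.01 to 2.07) with A740003 and 0.820 (0.540 to 1.24) with A438079. These were the 2 of 37 genes (5.41%, against 2.52% of all genes) called higher for A740003 over A438079.

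MIR222HG (chrX:45745211-45770274, minus strand), the common host of miR-221 and miR-222, had 33 counts with A740003, 19 with A438079 and 41 with PBS. It was lowest with A438079, at a ratio of 0.464 (0.254 to 0.818) over PBS, while the A740003 interval over PBS, 0.482 to 1.28, included 1. MIR193BHG (chr16:14301389-14331067, plus strand), which contains miR-193b and miR-365a, had 28 counts with A740003, 23 with A438079 and 40 with PBS, and its ratio of 0.576 (0.329 to 0.986) for A438079 over PBS was also called. These were the 2 of 37 genes (5.41%, against 9.43% of all genes) called lower for A438079 over PBS. The direct ratio of A740003 over A438079 had an interval that included 1 in both genes, 0.937 to 3.16 for MIR222HG and 0.660 to 2.16 for MIR193BHG. Both lay under 5 CPM, and the FPKM ratios of MIR193BHG over PBS differed from its count ratios by more than 1.5-fold.

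The other miRNA hosts were closer to PBS or less exact. MIRLET7A1HG, in RefSeq the host of let-7a-1 and its neighbours, had 71 counts with A740003, 61 with A438079 and 90 with PBS. Its ratios over PBS were 0.772 (0.557 to 1.07) for A740003 and 0.679 (0.482 to 0.950) for A438079. In GENCODE 29 the gene of this identifier spans only chr9:94176458-94177892, which holds none of these hairpins (let-7a-1 is at 94175957-94176036). The gene length that links its counts with its FPKM was 3562 nt with A740003, 2682 nt with A438079 and 3546 nt with PBS. Its transcript in GENCODE 29 has 1435 nt, so the gene model counted was longer than that one. Which annotation was used for counting is unclear, so whether these counts are of the let-7 host transcript is not known. MIR17HG, the host of the miR-17-92 cluster, had 56 counts with A740003, 53 with A438079 and 69 with PBS, and both intervals included 1. MIR600HG, which shares exons with STRBP on the same strand, had 161 counts with A740003, 110 with A438079 and 113 with PBS, ratios of 1.39 (1.09 to 1.79) for A740003 over PBS and 1.43 (1.11 to 1.84) for A740003 over A438079. The A740003 library was thus high in MIR600HG, and both antagonist libraries had fewer counts than PBS in MIRLET7A1HG and MIR17HG.

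MIR34AHG, host of the p53 target miR-34a, was the highest miRNA host by count, and none of its intervals excluded 1, at 308 counts with A740003, 290 with A438079 and 310 with PBS. MIR122HG, whose miR-122 is the main miRNA of hepatocytes, had 108 counts with A740003, 110 with A438079 and 91 with PBS. Its intervals over PBS, 0.870 to 1.55 with A740003 and 0.909 to 1.62 with A438079, included 1. MIR924HG had 133 counts with A740003, 133 with A438079 and 135 with PBS. MIR4453HG had 98 counts with A740003, 102 with A438079 and 95 with PBS. MIR4458HG had 64 counts with A740003, 79 with A438079 and 58 with PBS, and MIR762HG 26 with A740003, 31 with A438079 and 28 with PBS. No interval of these 4 genes excluded 1 in any comparison.

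As a group the 13 miRNA hosts gave median log2 ratios of -0.04 for A740003 over PBS, -0.09 for A438079 over PBS and 0.05 for A740003 over A438079. The medians over all genes were 0.01, -0.00 and 0.00 in the same order. A ratio above 1 was seen in 6, 4 and 8 of the 13 (46.2%, 30.8% and 61.5%), against 50.9%, 49.5% and 50.2% of all genes. With 13 genes such shares rest on few genes and give no group direction. Summed over all 74, the miRNA hosts had 1395 counts with A740003, 1212 with A438079 and 1275 with PBS. The summed ratio was 1.07 (0.991 to 1.16) for A740003 over PBS, 0.952 (0.879 to 1.03) for A438079 over PBS and 1.12 (1.04 to 1.21) for A740003 over A438079.

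The small RNAs themselves were hardly counted. RefSeq places 152 snoRNA or small Cajal body RNA genes and 114 miRNA genes within the spans of these hosts. Of the snoRNA genes 129 had a row, of which 117 were at 0 in all 3 libraries, and the other 12 summed to 4 counts with A740003, 12 with A438079 and 7 with PBS. All 113 miRNA genes with a row were at 0. The values above are therefore those of the host transcripts, and give no level of the small RNAs.

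GC content moved with the comparison over all genes and was looked at for the hosts. GC content was that of the longest GENCODE 29 transcript, with a median of 46.8% for the 22 snoRNA hosts, 43.6% for the 13 miRNA hosts and 47.5% for all genes with a value. For A740003 over PBS, the median log2 ratio of all genes was 0.11 in the lowest quartile of GC content and -0.26 in the highest, against -0.23 (7 genes) and 0.30 (5 genes) for the measured hosts and nuclear lncRNAs. The low-GC genes were 5 miRNA hosts, SNHG26 and MALAT1, and the high-GC genes were all snoRNA hosts, so GC content and kind of host cannot be told apart at either end. The trend was then removed by taking from each gene the median of its neighbours in GC content and length. After this step the median log2 ratio of the snoRNA hosts was 0.20 for A740003 over PBS, 0.08 for A438079 over PBS and 0.18 for A740003 over A438079. The ratio then lay above 0 in 19, 14 and 20 of 22 snoRNA hosts, against 49.4%, 49.3% and 49.7% of all genes in the same order. SNHG7, with 65.9% GC, had a log2 ratio of 0.06 for A740003 over PBS before this step and 0.45 after it. For A740003 over PBS NEAT1 had 0.38 before and 0.17 after, and MALAT1 0.14 before and -0.05 after. For A438079 over PBS NEAT1 had -0.10 before and -0.25 after, and MALAT1 0.23 before and 0.03 after. The step used the longest transcripts, of 22743 nt for NEAT1 and 8708 nt for MALAT1. The gene lengths that link their counts with their FPKM were far shorter, at 3196 nt and 2578 nt with A740003. Such lengths were also shorter than the longest transcript in the measured snoRNA hosts, except SNHG26. They were 760 nt against 2357 nt for SNHG7 and 340 nt against 1032 nt for SNHG5, with A740003. The effect of this difference in length on the values after the step was not tested.

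With the trend removed, MIR600HG, SNHG30 and MIR22HG were called higher for A740003 over PBS (3 of 37, against 3.49% of all genes) and none lower (6.73% of all genes). For A438079 over PBS none was called higher (1.96%) and MIR222HG and MIR193BHG stayed called lower (4.90%). For A740003 over A438079 MIR22HG and MIR3142HG stayed called higher (2.28%) and none lower (2.34%).

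**Figure D4:**
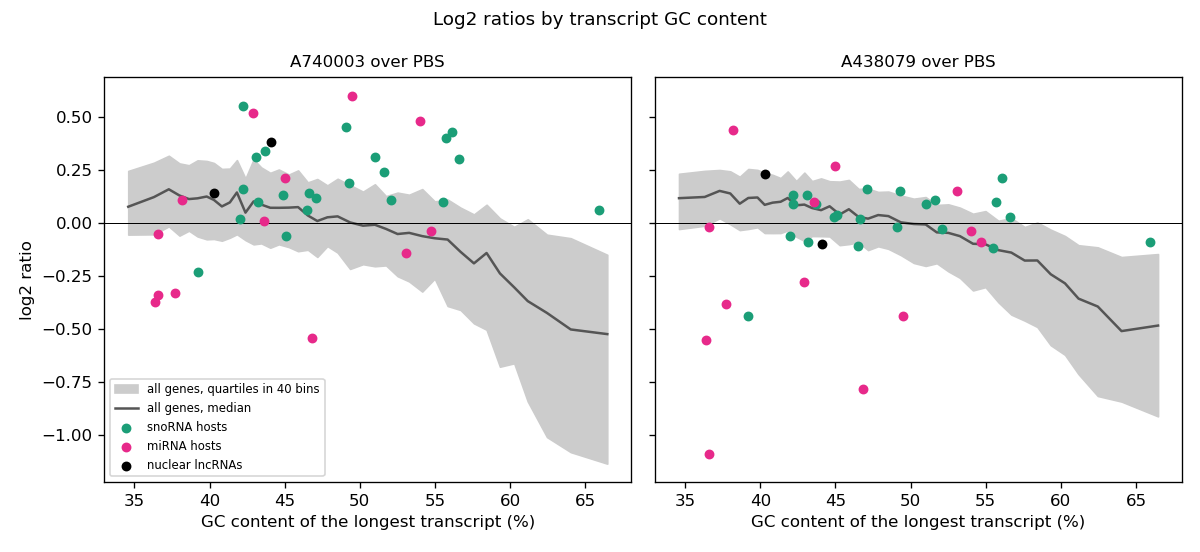
Log2 ratio over PBS against GC content (%) of the longest transcript, A740003 at the left and A438079 at the right; points are the 37 measured genes, and the grey line and band are the median and quartiles of all genes in 40 bins of GC content. In the A740003 panel most snoRNA hosts lie above the line of all genes, and MIR222HG lies lowest in the A438079 panel, at a log2 ratio of -1.09.

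The hosts with a tract within 5 bases of the start had a median log2 ratio of 0.22 for A740003 over PBS (10 genes), and those without had 0.14 (11 genes). The corresponding medians over all genes were 0.01 with the tract and 0.01 without. For A438079 over PBS the hosts had 0.10 with it and 0.02 without, and for A740003 over A438079 0.17 with it and 0.18 without. The part of the tract in these ratios was not tested.

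Overlaps limit some of these values, because the use of strand in counting is not known and reads of overlapping genes may have been shared. The expected counts were whole within 0.005 in all 3 libraries for 12 of the 37 measured genes: 4 of 22 snoRNA hosts and 8 of 13 miRNA hosts. Among them were SNHG5, SNHG19, SNHG26, MIR22HG, MIR3142HG and MIR222HG. They were not whole for ZFAS1, SNHG1, GAS5, NEAT1, SNHG30, SNHG10 or MIR193BHG. Most of the snoRNA host ratios therefore rest on counts that were not whole. Exons of ZFAS1 overlap ZNFX1 on the other strand, which had 731 counts with A740003 and 625 with PBS. SNHG10 overlaps GLRX5 in the same way (1138 with A740003 and 1253 with PBS). SNHG3, host of SNORA73A and SNORA73B, shares exons with RCC1 on its own strand (5064 with A740003 and 5253 with PBS). The part of these partners in the host ratios was not tested.

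Genes that act with the hosts were followed in 9 lists, with the same size rule and the same background. The 22 protein-coding snoRNA hosts, such as the ribosomal protein genes, had a median log2 ratio of 0.05 for A740003 over PBS, 0.00 for A438079 over PBS and 0.01 for A740003 over A438079, and none was called. CNOT1, the scaffold of the CCR4-NOT deadenylase, had 10362 counts with A740003, 9379 with A438079 and 7806 with PBS. EEF1B2, an elongation factor subunit, had 16511 counts with A740003, 17593 with A438079 and 20091 with PBS, and EIF4A1, a translation initiation helicase, had 27402 with A740003, 24892 with A438079 and 21602 with PBS. The 18 proteins of snoRNPs and their assembly had medians of 0.08, 0.04 and -0.06 for A740003 over PBS, A438079 over PBS and A740003 over A438079, with none called. NUFIP1, a snoRNP assembly factor, had 182 counts with A740003, 216 with A438079 and 257 with PBS. It was called lower for A740003 over PBS only after the GC and length step (log2 -0.66), as 1 of 18 genes, against 6.73% of all genes. Fibrillarin (FBL), the methylase of box C/D snoRNPs, had 5395 counts with A740003, 5678 with A438079 and 7070 with PBS, ratios over PBS of 0.746 (0.720 to 0.773) and 0.804 (0.777 to 0.833). The core H/ACA protein NOP10 had 1813 counts with A740003, 1435 with A438079 and 1433 with PBS.

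In the nonsense-mediated decay list 2 of 15 genes were called lower in each comparison over PBS, near the shares of all genes (10.6% for A740003 and 9.43% for A438079), and none for A740003 over A438079. They were UPF1, the central helicase, with 297 counts with A740003, 330 with A438079 and 613 with PBS, and SMG5, with 974 with A740003, 1113 with A438079 and 1711 with PBS. UPF2 had 1917 counts with A740003, 1749 with A438079 and 1436 with PBS. The list's medians were -0.04 for A740003 over PBS, -0.02 for A438079 over PBS and -0.01 for A740003 over A438079. After the GC and length step neither UPF1 (log2 -0.28 and -0.26 for A740003 and A438079 over PBS) nor SMG5 (-0.52 and -0.36) was called.

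Of 13 miRNA processing genes none was called over PBS. DICER1 had 3239 counts with A740003, 2988 with A438079 and 2476 with PBS, and the silencing scaffold TNRC6A 1611 with A740003, 1492 with A438079 and 1134 with PBS. TNRC6C, named after its values were seen, was called lower for A740003 over A438079, at 35 against 58 counts and a ratio of 0.589 (0.376 to 0.912). It was 1 of 13 genes, where 2.74% of all genes were called lower in this comparison. The medians of this list were 0.06 for A740003 over PBS, 0.14 for A438079 over PBS and -0.01 for A740003 over A438079.

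Of the 17 rows of paraspeckle proteins, RBM14 was called lower in each comparison over PBS (332 counts with A740003, 328 with A438079 and 522 with PBS). Of 16 nuclear speckle proteins, SRRM2 was called lower in each (810 with A740003, 849 with A438079 and 1571 with PBS). Each is 1 gene of its list, where 10.6% (A740003) and 9.43% (A438079) of all genes were called lower over PBS. Neither was called after the GC and length step, with log2 ratios for A740003 and A438079 over PBS of -0.41 and -0.45 in RBM14 and of -0.29 and -0.31 in SRRM2. None of either list was called higher, and the medians were 0.10 and 0.13 for A740003 over PBS and 0.03 and 0.11 for A438079 over PBS. The 15 nuclear exosome genes had no calls and medians of 0.11, 0.08 and 0.02 for A740003 over PBS, A438079 over PBS and A740003 over A438079. Among them DIS3, the catalytic subunit, had 1716 counts with A740003, 1591 with A438079 and 1310 with PBS.

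Of 15 other lncRNA genes 13 were measured and none was called, with medians of -0.14, -0.05 and -0.02 for A740003 over PBS, A438079 over PBS and A740003 over A438079. LINC-PINT had 125 counts with A740003, 95 with A438079 and 91 with PBS. TUG1 had 2339 counts with A740003, 2015 with A438079 and 1746 with PBS, and KCNQ1OT1 315 with A740003, 336 with A438079 and 402 with PBS. Of the 9 genes of mTOR and terminal oligopyrimidine translation, RPTOR, the mTORC1 subunit that binds substrates, was called lower in each comparison, as were 10.6% (A740003 over PBS), 9.43% (A438079 over PBS) and 2.74% (A740003 over A438079) of all genes. It had 109 counts with A740003, 164 with A438079 and 307 with PBS. LARP1, which binds the tract, had 1784 counts with A740003, 2089 with A438079 and 2412 with PBS, and its ratio over PBS was 0.723 (0.680 to 0.769) with A740003 and 0.868 (0.818 to 0.920) with A438079. With the GC and length trend removed RPTOR was no longer called (log2 -0.48 and -0.17 for A740003 and A438079 over PBS). Other genes of this list lay above PBS. LARP4 had ratios over PBS of 1.22 with A740003 and 1.15 with A438079, and MTOR 1.20 and 1.19. A ratio above 1 was seen in 4 of the 9 genes for A740003 over PBS and in 5 for A438079 over PBS. The list's medians were -0.06 for A740003 over PBS, 0.05 for A438079 over PBS and -0.04 for A740003 over A438079.

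**Figure D5:**
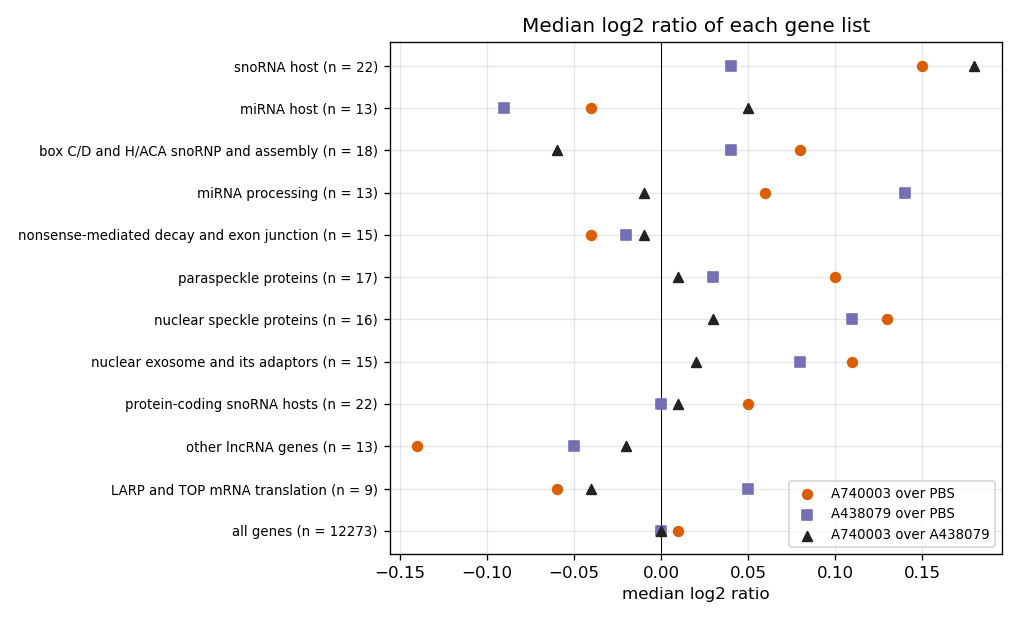
Median log2 ratio of each gene list in the 3 comparisons (circles for A740003 over PBS, squares for A438079 over PBS, triangles for A740003 over A438079), with all genes in the last row; no error bars are drawn, since each comparison is of 1 library with 1 library. The snoRNA hosts lie at 0.15 and 0.18 in the A740003 comparisons, the protein-coding snoRNA hosts at 0.05 and 0.01, and the other lncRNA genes at -0.14 and -0.02.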

How the data were processed

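HepG2 RNA of the 3 treatments was sequenced as 1 SMARTER mRNA library each, per the labels' protocols. The authors deposited expected counts per gene, estimates that need not be whole (not whole for 35.1% of values above 0 with A740003, 34.8% with A438079 and 33.3% with PBS), and FPKM values per gene, scaled by the authors for length and depth. The only build in the submitters' processing notes is GRCm38, of the mouse, and the identifiers are human, which leaves the build unclear. For the aligner, the counter and the use of strand: not given in the sources used here. Gene positions and transcripts were matched by Ensembl identifier to GENCODE 29 (GRCh38).

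Expected counts were rounded and scaled by TMM in edgeR 4.0.16 (R 4.3.3). Rows without an Ensembl identifier (0.0775% to 0.0853% of counts) stayed in the totals. Genes at a mean CPM of 1 or more were compared by the ratio of scaled counts with an exact (Clopper-Pearson) 95% interval, and log2 ratios had a pseudocount of 0.5 counts. The median measured gene had 438 counts. The interval does not include variation between cultures, and p-values were not computed. The steps were tested on simulated data. The genes and the accompanying lists were chosen with earlier results of these data known. Values are given for GAS5, ZFAS1, MALAT1, NEAT1, every gene called, the 10 highest by mean FPKM and every measured miRNA host, and for genes of each accompanying list taken from the 4 furthest from PBS at 5 CPM or more, the furthest included. SNHG30, SNHG10, SNHG26, SNHG14 and SNHG7, the overlap partners and the low genes named last were chosen after their values were seen. Alternatives were DESeq2 1.42.0 size factors, total counts, upper quartile scaling, other filters and folds, FPKM, whole counts, unrounded counts, and removal of the GC and length trend.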

Additional observations from a re-analysis of the deposited data

How the results depend on the processing

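No paired analysis was possible because there was 1 library per treatment, and for the same reason no library could be left out. Of the alternatives tried, 72 kept the sign of a median or a count within 1.5 times, 17 moved a count further, and 4 turned the sign of a median. Except for the GC and length step, the cause was not tested. The 72 include the medians at the 2-fold limit, which could not differ because a call limit does not enter a median. For A740003 over PBS, the 1 gene called higher became 0 with upper quartile scaling, 0 at a mean of at least 5 CPM, 2 with no filter beyond 1 count, 0 at 2-fold and 3 after removal of the GC and length trend. The 0 called lower became 3 with FPKM at a pseudocount of 0.1 and 3 at 1, where the call has no interval. For A438079 over PBS, the 0 called higher became 3 with no filter and 1 with FPKM at 0.1. The 2 called lower became 0 at 5 CPM, 4 with FPKM at 0.1, 1 at 2-fold and 1 with whole counts. The median log2 ratio for A438079 over PBS, 0.024, turned to -0.018 with upper quartile scaling, -0.083 and -0.082 with FPKM at 0.1 and 1, and -0.069 with whole counts, so it has no stable direction. For A740003 over A438079, the 2 called higher became 0 at 5 CPM, 4 with FPKM at 0.1 and 1 at 2-fold, and the 0 called lower became 1 with no filter. Medians were compared by sign alone. Over all measured genes of the rule, the median ranged from 0.061 to 0.14 for A740003 over PBS and from 0.14 to 0.20 for A740003 over A438079. No such range was taken for the snoRNA hosts alone. The 4 called miRNA hosts had 19 to 129 counts in a library, and their intervals are accordingly wide.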

Other observations

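Some hosts below the 1 CPM mean had counts, which are given here without a comparison. SNHG15, host of SNORA9, had 0 counts with A740003, 1 with A438079 and 0 with PBS. SNHG22 had 1 count with A740003, 10 with A438079 and 2 with PBS. MIR4500HG had 8 counts with A740003, 6 with A438079 and 0 with PBS. MIR99AHG, host of miR-99a, let-7c and miR-125b, had 9 counts with A740003, 1 with A438079 and 5 with PBS. MIR210HG, host of the hypoxia-responsive miR-210, had 9 counts with A740003, 4 with A438079 and 6 with PBS.

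SNHG25, host of SNORD104, had 6 counts with A740003, 5 with A438079 and 6 with PBS, while its deposited FPKM values were 99.08 with A740003, 1.30 with A438079 and 4.87 with PBS. The gene length that would link a count with its FPKM was 3.07 nt with A740003, 196 nt with A438079 and 63.6 nt with PBS. Among the 37 measured genes the FPKM ratio differed from the count ratio by more than 1.5-fold in MIR17HG, MIR193BHG and MIR762HG for A740003 over PBS (3 genes, against 4.61% of all genes), in MIR193BHG for A438079 over PBS (4.71% of all genes) and in none for A740003 over A438079 (4.40% of all genes).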
